A study of Sus scrofa with 92 samples.

Results

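Enzymes of cholesterol synthesis were followed in the livers of pigs that underwent hemorrhagic shock, polytrauma and resuscitation. The set holds 8 gene symbols: HMGCS1, IDI1, FDFT1, SQLE, LSS, CYP51A1, CYB5R3 and SREBF2. Members were found by symbol among the 25322 pig Ensembl identifiers of the count table, and 9 identifiers carried these symbols because IDI1 was on 2. The working name of the set was cholesterol synthesis and uptake, but none of the 8 symbols is an uptake gene, so the set is called cholesterol synthesis here. SREBF2 (ENSSSCG00000026092), which encodes a transcription factor that switches on this pathway, had 0 counts in all 92 libraries. It was therefore not measured, and 7 members (8 identifiers) were tested.

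The pigs were juvenile male Yorkshire-Landrace animals, and every animal was fasted overnight, splenectomized and subjected to chest injury, liver crush and controlled hemorrhage. Carbohydrate prefed (CPF) animals (n = 5) received a syrup bolus before induction of anesthesia, and fasted (FS) animals (n = 18) did not. Liver biopsies came from Baseline (B) and from 2, 8 and 20 hours into resuscitation (FR2, FR8, FR20), so Baseline was already a state of anesthesia and instrumentation. There was no unshocked group, so a change over time cannot be told apart from the effects of anesthesia, surgery, repeated biopsy and time of day. By the labels 3 FS and 2 CPF animals died. Animals are named here by numbers from 1 to 23.

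Cholesterol is built from acetyl-CoA by the mevalonate pathway, which makes isoprenoid units, joins them to squalene and closes squalene to lanosterol, the first sterol. Further enzymes then turn lanosterol into cholesterol with electrons carried by cytochrome b5. Liver is a main site of this synthesis, and its enzymes are known to be controlled together by the transcription factor SREBP-2, the product of SREBF2, which is held in the endoplasmic reticulum when sterols are plentiful.

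The table held 92 libraries, of which 88 were used, with 6877117 to 16613261 counts each (median 12071957). The Baseline libraries of FS animals 17, 19 and 21 held albumin at 0.197, 52.7 and 0.312 per 1000000 counts, against 13202 to 168246 in the 88 libraries, and were left out for their lack of this liver marker. The FR8 library of CPF animal 3 held 4388 counts in all and was left out too, so FR8 in CPF animals rested on 4 animals.

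Time labels were checked on 6780 expressed genes outside the lipid lists, by asking which time point's mean profile over the other animals each library was nearest to. Of 88 libraries, 70 were nearest their own labelled time point. The other 18 came from 8 animals (FS 4, 9, 10, 17, 19, 20 and 21, and CPF 13). Some assignments were near ties. The Baseline library of FS animal 4 had r = 0.04 with FR20 and 0.03 with B. The FR8 library of CPF animal 13 had r = 0.41 with FR20 and 0.39 with FR8. The FR2 and FR8 libraries of FS animal 11 counted as nearest their labels at r = -0.05 and -0.03, with every r negative. Animal 11 was not among the 8. In FS animals 17, 19 and 21 alike, the library labelled FR2 was nearest FR8, the library labelled FR8 was nearest B and the library labelled FR20 was nearest FR2. The library of FS animal 10 labelled B was nearest FR8, and the library of CPF animal 13 labelled FR20 was nearest B. Labels were kept as given, and results were also computed without these 8 animals (15 animals left) and without animals 17, 19 and 21. Dropping animals by their profile favors separation of the time points by its construction, and these choices were made after seeing the data.

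The FR2 and FR8 libraries of FS animal 11 held 0 counts on 272 and 269 of the 2559 genes with a median of at least 500 counts, and no other library used held 0 on any of them. CYP51A1 was among the genes at 0 in both libraries, and whether these zeros are missing data was not tested. CYP51A1 is therefore also given without these 2 libraries.

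Levels are CPM (counts per 1000000), scaled by trimmed mean of M-values. A gene was called changed when edgeR's quasi-likelihood test gave a Benjamini-Hochberg adjusted p under 0.05 over all genes tested and the log2 fold change was 1 or more in size. Log2 fold changes are given with their standard errors (SE), and comparisons are named as in FR8vB, which is FR8 against Baseline with the animal as a block. All libraries used entered this fit together. Animals whose Baseline or FR8 library was left out therefore still entered these estimates through their other libraries. Counts of animals that were lower or higher cover only animals with both libraries, so the estimates do not rest on those pairs alone. CPM are not divided by gene length, so levels are compared between samples and not between genes.

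The median level was highest at Baseline for 7 of 7 members in FS animals and for 7 of 7 in CPF animals. It was lowest at FR8 for 7 of 7 members in CPF animals and for 6 of 7 in FS animals, LSS being the exception with medians of 71.7 CPM at FR8 and 69.9 CPM at FR20. In CPF animals the 4 FR8 libraries all lay below the 5 Baseline libraries for 6 of 7 members, and CYB5R3 was the exception. In FS animals this was so for 0 of 7 members, and for 6 of 7 without the 8 animals with doubtful labels, where FDFT1 was the exception. The share of all genes with such a separation was not computed, so these counts only describe the members.

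**Figure D1:**
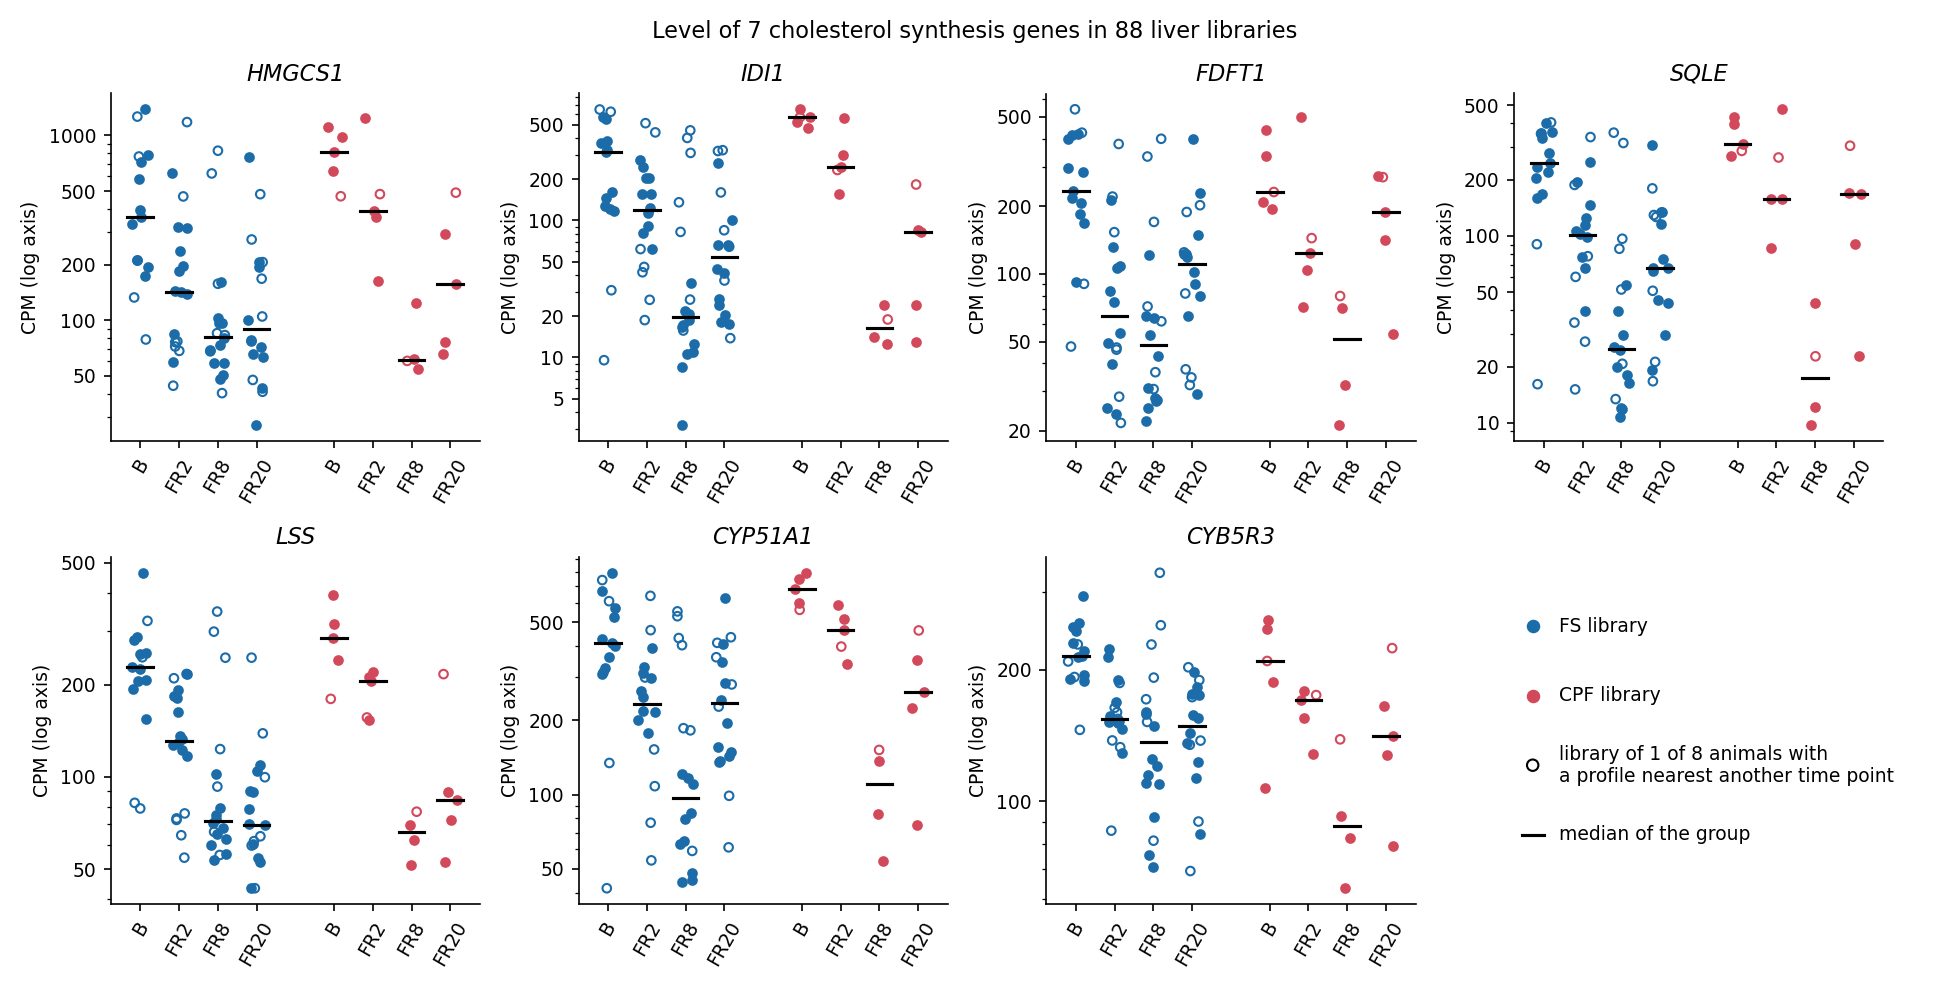
Levels of 7 members in 88 libraries, in CPM on a log axis, by labelled time point and feeding group (blue FS, red CPF). Bars are medians, hollow points are the libraries of the 8 animals with a library nearest another time point, and the 2 libraries of FS animal 11 at 0 CPM of CYP51A1 are not drawn. The highest medians are at B, and the FR8 points of FS animals that lie among the Baseline values include hollow ones, as for LSS, whose 3 highest (245.2 to 346.9 CPM) are all hollow.

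HMGCS1 (ENSSSCG00000016872) encodes the cytosolic enzyme that makes HMG-CoA, the entry to the mevalonate pathway. In CPF animals it lay at 976.7, 1113, 809.7, 468.6 and 638.4 CPM at Baseline (animals 3, 7, 8, 13 and 18) and at 54.1, 61.5, 60.1 and 124.2 CPM at FR8 (animals 7, 8, 13 and 18). In FS animals the lowest, median and highest values were 78.5, 363.9 and 1387 CPM at Baseline and 40.2, 81.3 and 827.3 CPM at FR8. CPF values at FR8 were all below the lowest Baseline value, whereas the FS ranges overlapped. HMGCS1 fell at FR8vB with a log2 fold change of -3.52 ± 0.88 in CPF animals (adjusted p = 0.00723, lower in 4 of 4) and of -2.03 ± 0.45 in FS animals (adjusted p = 0.000217, lower in 15 of 15).

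IDI1 (ENSSSCG00000029066) encodes the isomerase that interconverts the pair of isoprenoid building blocks. It had the lowest log2 fold change of the 7 members at FR8vB in both feeding groups. In CPF animals Baseline values were 647.5, 518.9, 470.1, 566.5 and 566.2 CPM in the same animal order, and FR8 values were 12.6, 14, 18.9 and 24.1 CPM. In FS animals the values were 9.53 to 645.1 CPM at Baseline (median 316.8) and 3.22 to 454.2 CPM at FR8 (median 19.7). The FS Baseline minimum came from animal 10, whose Baseline library was nearest FR8 in profile. The fall was -5.07 ± 1.07 in CPF animals (adjusted p = 0.00263) and -3.03 ± 0.54 in FS animals (adjusted p = 1.22e-05, lower in 14 of 15). Without the 8 animals the FS value was -4.13 ± 0.39.

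The other identifier with the IDI1 symbol (ENSSSCG00000027363) was named only in the study's tables and held 0 to 83 counts. In CPF animals its counts were 16 to 65 at Baseline and 0 to 2 at FR8, so no fold is given. Reads of near-identical genes could have been split between the 2 identifiers or dropped, and this identifier enters the counts of 8 below as a row of its own.

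FDFT1 (ENSSSCG00000026044) encodes squalene synthase, the first enzyme committed to sterols. Its FS median was 234.9 CPM at Baseline, 64.8 at FR2, 48.5 at FR8 and 110.3 at FR20. In CPF animals it was 334.5, 438.3, 208.9, 231.5 and 195.4 CPM at Baseline and 32, 21.3, 79.7 and 70.7 CPM at FR8, with no overlap. FDFT1 was the member with the lowest log2 fold change at FR2vB in FS animals, -1.64 ± 0.39 (adjusted p = 0.000496, lower in 14 of 15). At FR8vB it fell with a log2 change of -1.94 ± 0.42 in FS animals (adjusted p = 0.000187) and of -2.55 ± 0.80 in CPF animals (adjusted p = 0.0262).

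SQLE (ENSSSCG00000005970) encodes squalene epoxidase, a rate-limiting step after squalene. CPF animals had 396.2, 433.3, 309.5, 285.1 and 266.5 CPM at Baseline, and 9.77, 12.2, 22.7 and 44.0 CPM at FR8. FS animals had 16.1 to 404.9 CPM at Baseline (median 244.9) and 10.8 to 357.1 CPM at FR8 (median 24.9). All CPF values at FR8 were lower than all at Baseline, and the FS overlap involved low Baseline libraries of animals 10 and 4 (16.1 and 90.3 CPM) and high FR8 libraries of animals 17, 21 and 9 (357.1, 314.3 and 96.6 CPM). SQLE fell at FR8vB with a log2 fold change of -4.08 ± 0.93 in CPF animals (adjusted p = 0.00386) and of -2.68 ± 0.47 in FS animals (adjusted p = 8.5e-06, lower in 14 of 15).

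LSS (ENSSSCG00000021418) encodes lanosterol synthase, which closes the sterol rings. It was lower at FR2 than at Baseline in 15 of 15 FS animals and in 5 of 5 CPF animals, by a log2 fold change of -0.79 ± 0.22 in FS (adjusted p = 0.00241), short of the fold threshold. At FR8vB it fell with a log2 change of -1.35 ± 0.23 in FS animals (adjusted p = 6.1e-06) and of -2.12 ± 0.45 in CPF animals (adjusted p = 0.00270). LSS was lower at FR20 than at Baseline in 15 of 15 FS animals too, at -1.62 ± 0.22 (adjusted p = 9.35e-08), and its FR20vFR8 change in FS animals was -0.28 ± 0.21 (adjusted p = 0.476).

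CYP51A1 (ENSSSCG00000015311) encodes the cytochrome P450 that demethylates lanosterol. Without animal 11 the FS values were 54.1 to 640.4 CPM at FR2 (median 247.9, n = 17) and 44.0 to 553.9 CPM at FR8 (median 110.4, n = 17), against 41.7 to 794.5 CPM at Baseline (median 413.9). In CPF animals they were 794.3, 597.1, 680.9, 562.0 and 746.3 CPM at Baseline and 53.9, 83.7, 151.8 and 137.4 CPM at FR8. With all 88 libraries CYP51A1 fell at FR8vB with a log2 fold change of -1.90 ± 0.49 in FS animals (adjusted p = 0.00155) and of -2.73 ± 0.92 in CPF animals (adjusted p = 0.0386). Without the 2 libraries of animal 11 these were -1.64 ± 0.38 (adjusted p = 0.000413) and -2.73 ± 0.70 (adjusted p = 0.00741).

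CYB5R3 (ENSSSCG00000000038) encodes cytochrome b5 reductase, which hands electrons from NADH to cytochrome b5 for sterol and fatty acid enzymes, and in other cells to methemoglobin. Its levels spanned 63.4 to 332.5 CPM over the 88 libraries, the smallest ratio of highest to lowest among the 7 members. FS values were 145.7 to 293.7 CPM at Baseline (median 214.5) and 70.7 to 332.5 CPM at FR8 (median 136.9). CPF values were 247.7, 187.2, 107.3, 209.2 and 260.1 CPM at Baseline and 92.9, 63.4, 138.6 and 82.6 CPM at FR8, and these overlapped. CYB5R3 was lower at FR8vB, at -0.68 ± 0.14 in FS animals (adjusted p = 9.91e-05, lower in 14 of 15), below the fold threshold, and at -1.06 ± 0.27 in CPF animals (adjusted p = 0.00876, lower in 4 of 4), which passed it.

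At FR8vB in CPF animals, 8 of 8 tested identifiers fell past both thresholds, against 5.14% of all 13667 genes tested. Their median log2 fold change was -3.13 against 0.04 for all genes, and -2.73 over the 7 members without the low-count IDI1 identifier. The count was 5 without CPF animal 18, 6 without animal 7 or animal 8, and 7 without animal 3 or animal 13. CYP51A1 lost its call without each of the 5 CPF animals in turn (adjusted p from 0.0559 to 0.119), FDFT1 without animals 7, 8 and 18 (0.0621 to 0.112) and CYB5R3 without animal 18 (0.0911). Without the 5 animals that died the count was 0, with 2 CPF libraries left at FR8, and it was 4 when the 3 libraries without albumin were kept. At FR8vB in FS animals 7 of 8 identifiers fell past both thresholds, against 7.39% of all genes, and 8 of 8 were lower at an adjusted p under 0.05 alone, against 19.5% of all genes. The median was -1.99 against -0.00 for all genes, and -1.94 over the 7 members without the low-count IDI1 identifier. The FS count was 7 without the 8 animals and 7 without animals 17, 19 and 21, and it was 4 with the 3 libraries without albumin kept.

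**Figure D2:**
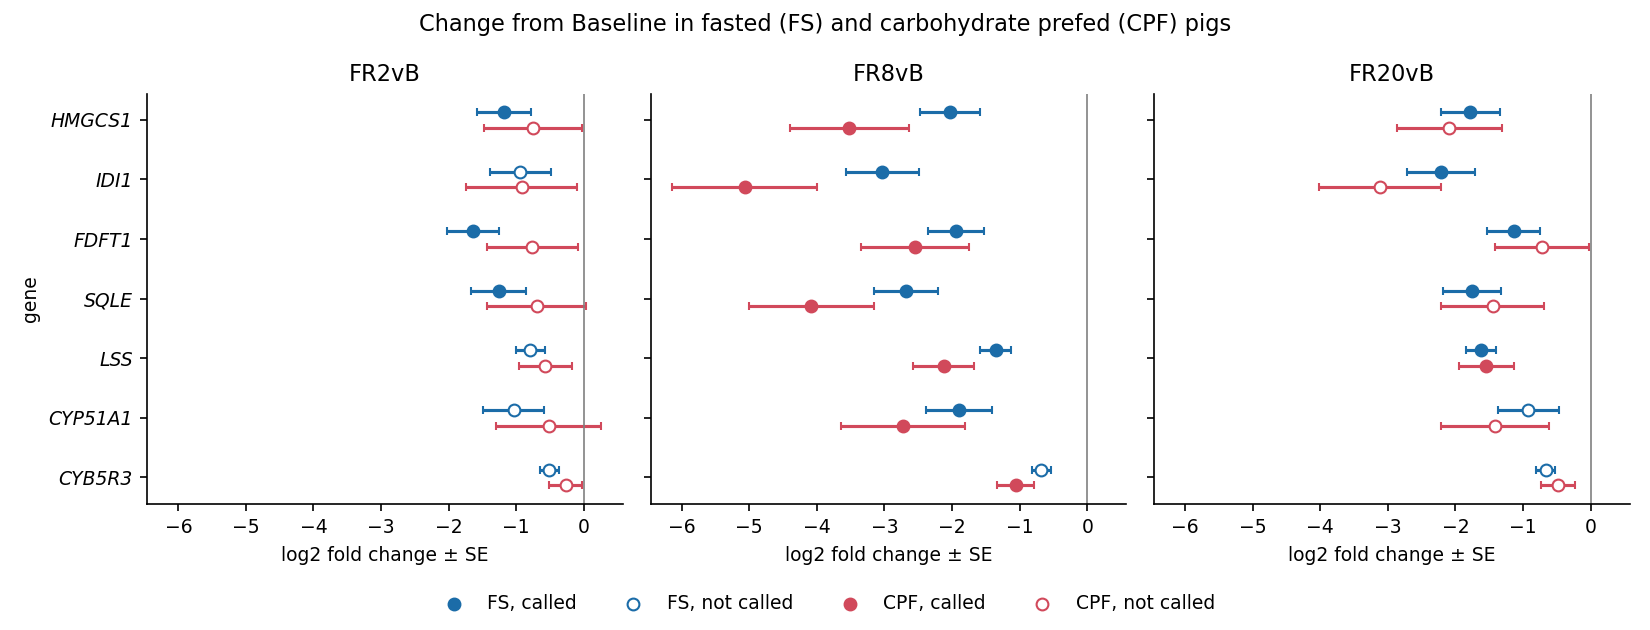
Log2 fold change from Baseline with its SE for 7 members at FR2, FR8 and FR20 in FS (blue) and CPF animals (red). Filled points passed both thresholds. Every point lies below 0, and the FR8vB points of CPF animals run from -1.06 for CYB5R3 to -5.07 for IDI1.

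The fall was already measurable at FR2 in FS animals. HMGCS1 (-1.18 ± 0.40, adjusted p = 0.0139), SQLE (-1.26 ± 0.41, adjusted p = 0.00958) and FDFT1 were called at FR2vB, 3 of 8 identifiers against 5.85% of all genes. LSS and CYB5R3 passed the adjusted p alone, which made 5 of 8 lower against 21.1% of all genes. IDI1 (-0.94 ± 0.45, adjusted p = 0.0871) and CYP51A1 (-1.04 ± 0.45, adjusted p = 0.0543) did not pass. HMGCS1 lost its call without animals 17, 19 and 21, at a log2 fold change of -0.95 ± 0.39, and CYP51A1 gained one without the 8 animals (-1.15 ± 0.48, adjusted p = 0.0444). Without the 2 libraries of animal 11, CYP51A1 was at -0.81 ± 0.34 (adjusted p = 0.0482), short of the fold threshold. With the 3 libraries without albumin kept, 1 of 8 was called. Without the animal block the adjusted p of HMGCS1 was 0.0501.

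In CPF animals edgeR called 0 of 8 identifiers at FR2vB, against 0.937% of all genes falling. At an unadjusted p under 0.05 there were 0 of 8, against 2735 of all 13667 genes in either direction. DESeq2, the likelihood ratio test and limma called 0. Log2 fold changes ran from -0.27 ± 0.25 for CYB5R3 to -0.92 ± 0.82 for IDI1. CPF animal 7 was the only CPF animal in which SQLE, IDI1 and FDFT1 were higher at FR2 than at Baseline. Its FR2 and Baseline values were 476.2 and 433.3 CPM for SQLE and 561.2 and 518.9 CPM for IDI1.

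Between FR2 and FR8 the sizes of change ran from small to large among the members, and the differences between members were not tested. In FS animals IDI1 fell with a log2 change of -2.09 ± 0.51 (adjusted p = 0.00144) and SQLE with one of -1.42 ± 0.44 (adjusted p = 0.0111), whereas FDFT1 was at -0.30 ± 0.39 (adjusted p = 0.613) and CYB5R3 at -0.17 ± 0.13 (adjusted p = 0.339). With the low-count IDI1 identifier, 3 of 8 were called at FR8vFR2 in FS animals, against 3.43% of all genes falling. The count was 1 without the animal block, 1 without the 5 animals that died, 5 without animals 17, 19 and 21 and 6 without the 8 animals, against 7.55% of all genes falling.

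In CPF animals 5 of 8 identifiers were called at FR8vFR2, against 2.36% of all genes. SQLE fell with a log2 change of -3.38 ± 0.91 (adjusted p = 0.0199) and IDI1 with one of -4.15 ± 1.03 (adjusted p = 0.0142), each lower in 4 of 4 animals, and HMGCS1, LSS and the low-count IDI1 identifier were also called. Leaving out animal 7 or animal 13 brought the count to 0, animal 8 or animal 18 to 2, and animal 3 to 4. It was also 0 without the 5 animals that died.

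At FR20 the median lay between those of FR8 and Baseline for 6 of 7 members in FS and 7 of 7 in CPF animals. In FS animals HMGCS1 was still lower at FR20vB, with a log2 fold change of -1.78 ± 0.44 (adjusted p = 0.00124), as were IDI1 at -2.21 ± 0.50 (adjusted p = 0.000396), SQLE at -1.75 ± 0.43 (adjusted p = 0.00110) and FDFT1 at -1.14 ± 0.39 (adjusted p = 0.0195, lower in 10 of 15). FDFT1 lost this call with the 3 libraries without albumin kept (-0.83 ± 0.42, adjusted p = 0.146), without FS animal 12 (-0.98 ± 0.40, adjusted p = 0.0562) and without animals 17, 19 and 21 (-0.98 ± 0.37, short of the fold threshold). With LSS, 5 of 8 identifiers were called against 5.25% of all genes, and CYB5R3 made 6 of 8 lower at the adjusted p alone, against 16.4% of all genes. CYP51A1 was at -0.92 ± 0.45 (adjusted p = 0.111).

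In CPF animals LSS alone was called at FR20vB (-1.54 ± 0.41, adjusted p = 0.0448), 1 of 8 against 0.454% of all genes. It lost the call without animal 3, 7, 8 or 18 (adjusted p from 0.127 to 0.228) and without the animal block (adjusted p = 0.142). Without animal 13, whose FR20 library was nearest Baseline, 2 of 8 were called, and without the 8 animals 5 of 8, against 4.35% of all genes falling. These 2 settings hold the same 4 CPF animals and differ in the FS animals kept, which share the estimate of spread. IDI1 was at -3.67 in both, with an SE of 1.03 without animal 13 and of 0.64 without the 8 animals. IDI1 at FR20 was 24.3, 81.9, 13, 182.7 and 84.8 CPM in animals 3, 7, 8, 13 and 18, all below the lowest Baseline value of 470.1 CPM. Its log2 fold change over the 88 libraries was -3.12 ± 0.90 (adjusted p = 0.0629).

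The rise from FR8 to FR20 was not called for any member. In FS animals edgeR called 0 of 8 identifiers at FR20vFR8, against 1.19% of all genes rising. At an unadjusted p under 0.05 there were 3 of 8, against 2962 of all 13667 genes in either direction. DESeq2 and the likelihood ratio test called 0, and limma with quality weights called 3. SQLE differed by 0.94 ± 0.42 (adjusted p = 0.177) and CYP51A1 by 0.98 ± 0.45 (adjusted p = 0.179). Without animals 17, 19 and 21 the count was 4, and without the 8 animals it was 5, against 5.97% of all genes rising. In CPF animals the count was 0 of 8, against 0.00732% of all genes rising. At an unadjusted p under 0.05 there were 5 of 8, against 1484 of all 13667 genes in either direction. DESeq2 and the likelihood ratio test called 0, and limma called 1. SQLE was nevertheless higher at FR20 than at FR8 in 4 of 4 animals (2.63 ± 0.86, adjusted p = 0.224).

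**Figure D3:**
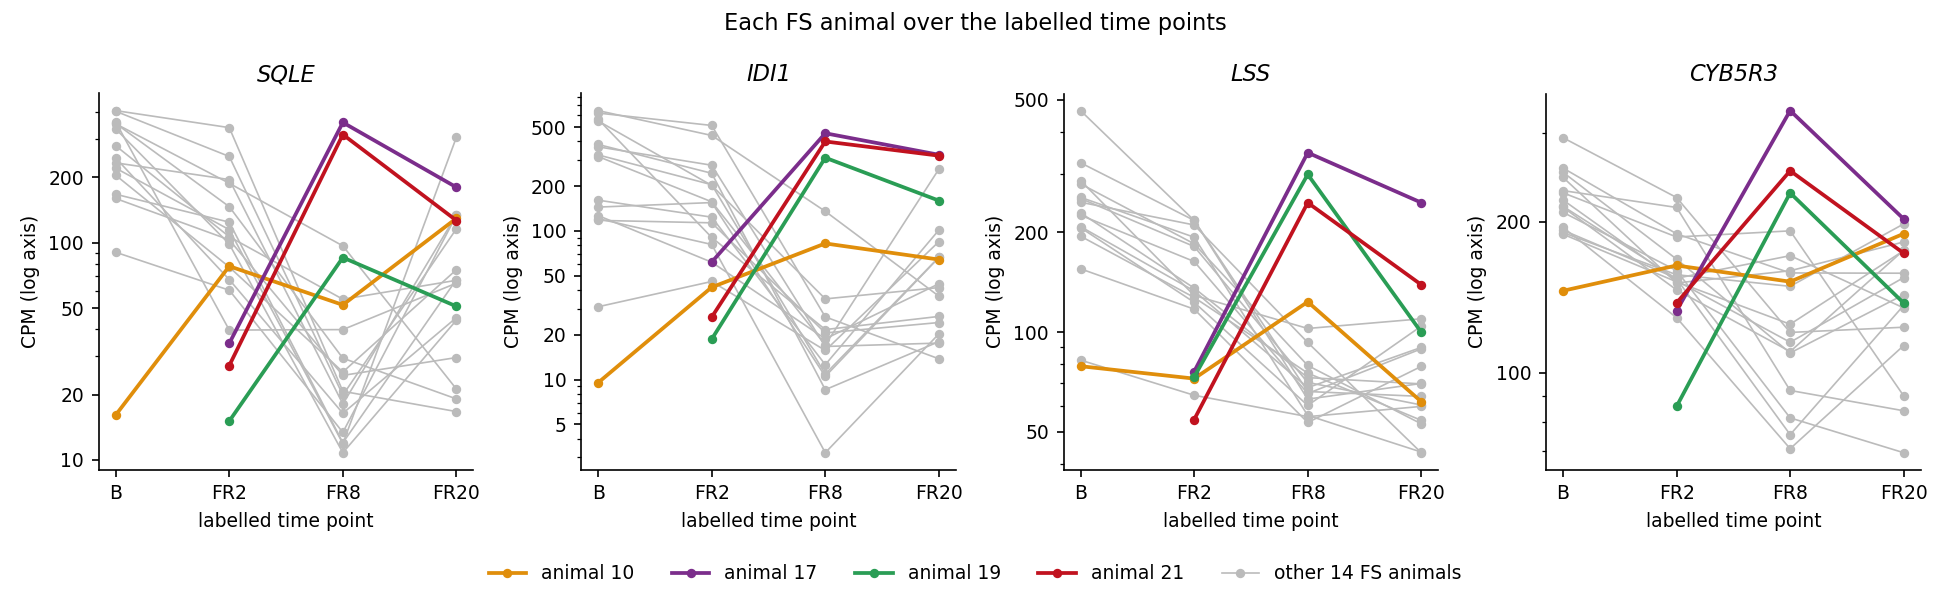
CPM of SQLE, IDI1, LSS and CYB5R3 (log axis) in each FS animal over the labelled time points, with animals 10, 17, 19 and 21 in color and the other 14 in gray. Animals 17, 19 and 21 have no Baseline point. Their libraries labelled FR8 stand above those labelled FR2, and in SQLE the FR8 libraries of animals 17 and 21 reach 357.1 and 314.3 CPM.

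FS animals 17, 19 and 21 ran against the other animals on the members as they did on the rest of the genes. Their IDI1 values were 61.7, 18.7 and 26.3 CPM in the libraries labelled FR2, 454.2, 310.9 and 400.0 CPM in those labelled FR8, and 325.5, 160.0 and 321.0 CPM in those labelled FR20. LSS was 76.0, 73.2 and 54.5 CPM in their libraries labelled FR2 and 346.9, 298.3 and 245.2 CPM in those labelled FR8. In the 11 FS animals outside the 8, IDI1 at FR8 lay between 3.22 and 34.9 CPM, and LSS between 53.4 and 102.5 CPM. Since the label check did not use the members, these are values on genes it left out, but the libraries are the same.

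The feeding groups did not differ past the thresholds in any member. In the tests of the difference between the CPF and FS changes, edgeR called 0 of 8 identifiers at FR2vB, FR8vB and FR20vB, against 0% of all genes in each. At an unadjusted p under 0.05 there were 0, 1 and 0 of 8, against 397, 468 and 521 of all 13667 genes. The 1 was the low-count IDI1 identifier, and DESeq2, the likelihood ratio test and limma called 0. At FR8vB the CPF change minus the FS change had an interval (1.96 SE) from -4.11 to 0.03 for IDI1, from -3.25 to 0.46 for SQLE, from -3.31 to 0.31 for HMGCS1 and from -0.97 to 0.22 for CYB5R3.

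Levels were also set side by side at each time point. At Baseline edgeR called 0 of 8 identifiers between CPF and FS animals, against 0.0257% of all genes. The low-count IDI1 identifier, 1 of 8, had an unadjusted p under 0.05, against 895 of all 11688 genes. The difference (CPF minus FS) was 0.90 ± 0.54 for IDI1 (adjusted p = 0.766), 0.67 ± 0.48 for HMGCS1 (adjusted p = 0.833) and 0.08 ± 0.39 for FDFT1 (adjusted p = 0.992). CPF values of IDI1 at Baseline lay between 470.1 and 647.5 CPM, and FS values between 9.53 and 645.1 CPM. At FR2 0 of 8 were called against 0% of all genes, with SQLE at 0.99 ± 0.47 (adjusted p = 0.885), and at FR8 and FR20 0 of 7 and 0 of 8 were called, also against 0% of all genes. Unadjusted p was under 0.05 for 1 (SQLE), 0 and 0 identifiers at FR2, FR8 and FR20. Of all genes it was so for 664 of 11892, 618 of 11951 and 400 of 12307. The 3 other tools called 0 at each time point.

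Animals that died were compared with those that lived at each time point, with a term for the feeding group. At FR2 SQLE was 77.2, 195.0 and 338.1 CPM in the FS animals that died (2, 16 and 20) and 476.2 and 157.5 CPM in the CPF animals that died (7 and 8). In the animals that lived it was 15.1 to 249.1 CPM in FS (median 98.5, n = 15) and 157.0, 262.9 and 85.8 CPM in CPF animals 3, 13 and 18. The highest value in each feeding group was that of an animal that died, and the ranges overlapped.

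HMGCS1 at FR2 was highest in the same animals as SQLE, with 1182 CPM in FS animal 20 and 1244 CPM in CPF animal 7. The animals that lived had 44.1 to 630.0 CPM in FS and 163.7 to 481.3 CPM in CPF. The other animals that died lay within these ranges, at 59.2 and 235.7 CPM in FS and 363.7 CPM in CPF. The difference at FR2 (died minus lived) was 1.02 ± 0.44 for SQLE (adjusted p = 0.855), 1.29 ± 0.54 for HMGCS1 (adjusted p = 0.855) and 1.17 ± 0.52 for FDFT1 (adjusted p = 0.855). EdgeR called 0 of 8 identifiers at B, FR2 and FR20 and 0 of 7 at FR8, against 0% of all genes at each time point. At an unadjusted p under 0.05 there were 0, 4, 0 and 1 at B, FR2, FR20 and FR8. Of all genes there were 998 of 11688, 656 of 11892, 642 of 12307 and 265 of 11951 in the same order. The members were SQLE, HMGCS1, FDFT1 and the low-count IDI1 identifier at FR2 and SQLE at FR8. The 3 other tools called 0.

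Genes on either side of the members in the pathway were taken from lists of pathway genes. Of 3 other mevalonate enzymes tested (of 6 listed), 3 fell at FR8vB in FS animals, against 7.39% of all genes falling, and 3 in CPF animals, against 5.14%, with median log2 fold changes of -1.75 and -2.88. MVK, mevalonate kinase, had the lowest value in FS (-1.79 ± 0.40, adjusted p = 0.000283) and in CPF animals (-3.36 ± 0.76, adjusted p = 0.00373). ACAT2, the cytosolic thiolase at the head of the pathway, was the highest in FS animals (-1.62 ± 0.35) and FDPS, farnesyl diphosphate synthase, in CPF animals (-2.72 ± 0.66).

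Of 7 tested enzymes that act after lanosterol (of 9 listed), 4 fell in FS animals (7.39% of all genes) and 5 in CPF animals (5.14%), with medians of -1.01 and -1.87. MSMO1, a methylsterol oxidase, was the lowest in both, at -2.24 ± 0.42 in FS (adjusted p = 2.52e-05) and -3.31 ± 0.80 in CPF animals (adjusted p = 0.00583). HSD17B7, a sterol ketone reductase, was the highest in both and was not called, at 0.05 ± 0.20 and -0.57 ± 0.38.

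Among 7 tested regulators of SREBP (of 11 listed), 1 fell in each feeding group (7.39% of all genes in FS and 5.14% in CPF animals) and 0 rose (4.44% and 3.70%), and the medians were 0.07 and -0.01. The gene that fell was INSIG1, whose product holds SREBP in the endoplasmic reticulum and which is itself a known SREBP target. It fell with a log2 change of -2.28 ± 0.43 in FS (adjusted p = 2.52e-05) and of -3.34 ± 0.86 in CPF animals (adjusted p = 0.00844). The highest values were those of ERLIN1 in FS (0.78 ± 0.22) and UBE2G2 in CPF animals (0.66 ± 0.17), parts of the sterol-dependent degradation machinery, which passed the adjusted p (0.00301 and 0.00844) but not the fold threshold.

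In the list of uptake and intracellular transport edgeR called 0 of 10 tested genes (of 13 listed) at FR8vB in either feeding group, against the same shares of all genes, and the medians were -0.01 in FS and -0.00 in CPF animals. At an unadjusted p under 0.05 there were 5 of 10 genes in FS and 3 of 10 in CPF animals. Of all 13667 genes, 6506 in FS and 3878 in CPF animals had such a p, so these counts were near the shares of all genes. The adjusted p alone was passed by 3 and 1. Its extremes in FS animals were OSBP, an oxysterol-binding protein (0.57 ± 0.12), and MYLIP, the ubiquitin ligase that degrades lipoprotein receptors (-0.40 ± 0.15). In CPF animals they were the receptor gene VLDLR (0.87 ± 0.38, adjusted p = 0.120) and SCARB1, the high-density lipoprotein receptor (-0.52 ± 0.21, adjusted p = 0.0757).

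Of 9 tested genes for cholesterol esters, bile acids and efflux (of 11 listed), 4 fell in FS animals, against 7.39% of all genes falling, and 2 in CPF animals, against 5.14%, and 0 rose in either, against 4.44% and 3.70% of all genes rising. CYP7A1, the rate-limiting enzyme of bile acid synthesis, was the lowest, at -2.86 ± 0.60 in FS (adjusted p = 0.000133) and -2.82 ± 1.06 in CPF animals (adjusted p = 0.0620). SOAT1, an acyltransferase that esterifies cholesterol, was the highest in both, at 0.66 ± 0.26 and 0.43 ± 0.49, and was not called.

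The dolichol and isoprenoid branch, which uses the same isoprenoid units for other products, had medians of 0.48 in FS and 0.55 in CPF animals over 6 tested genes (of 9 listed). PDSS1, of ubiquinone synthesis, rose in FS animals by 1.07 ± 0.23 (adjusted p = 0.000124, higher in 15 of 15), the only gene called, against 4.44% of all genes rising. ICMT, a methyltransferase of prenylated proteins, was the highest in CPF animals (0.97 ± 0.25, adjusted p = 0.00911), short of the fold threshold, and DOLK, dolichol kinase, the lowest in both (-0.00 ± 0.11 and -0.61 ± 0.22).

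Fatty acid synthesis, the neighboring lipid pathway, had 6 of 9 tested genes falling in FS animals, against 7.39% of all genes, and 5 of 9 in CPF animals, against 5.14% (of 11 listed), with medians of -1.79 and -2.52. FASN, fatty acid synthase, was the lowest in both, at -3.73 ± 0.61 in FS (adjusted p = 3.39e-06) and -4.18 ± 1.15 in CPF animals (adjusted p = 0.0126). ME1, malic enzyme, was the highest, at 0.43 ± 0.25 and 1.01 ± 0.49, and was not called.

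Of 3 tested partners of CYB5R3 (of 6 listed), CYB5A, the cytochrome b5 that receives its electrons, fell with a log2 change of -1.06 ± 0.24 in FS (adjusted p = 0.000373) and of -1.55 ± 0.46 in CPF animals (adjusted p = 0.0184). CYB5R4, another member of the reductase family, rose in CPF animals by 1.13 ± 0.40 (adjusted p = 0.0487), against 3.70% of all genes rising, and differed by 0.65 ± 0.21 in FS animals.

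**Figure D4:**
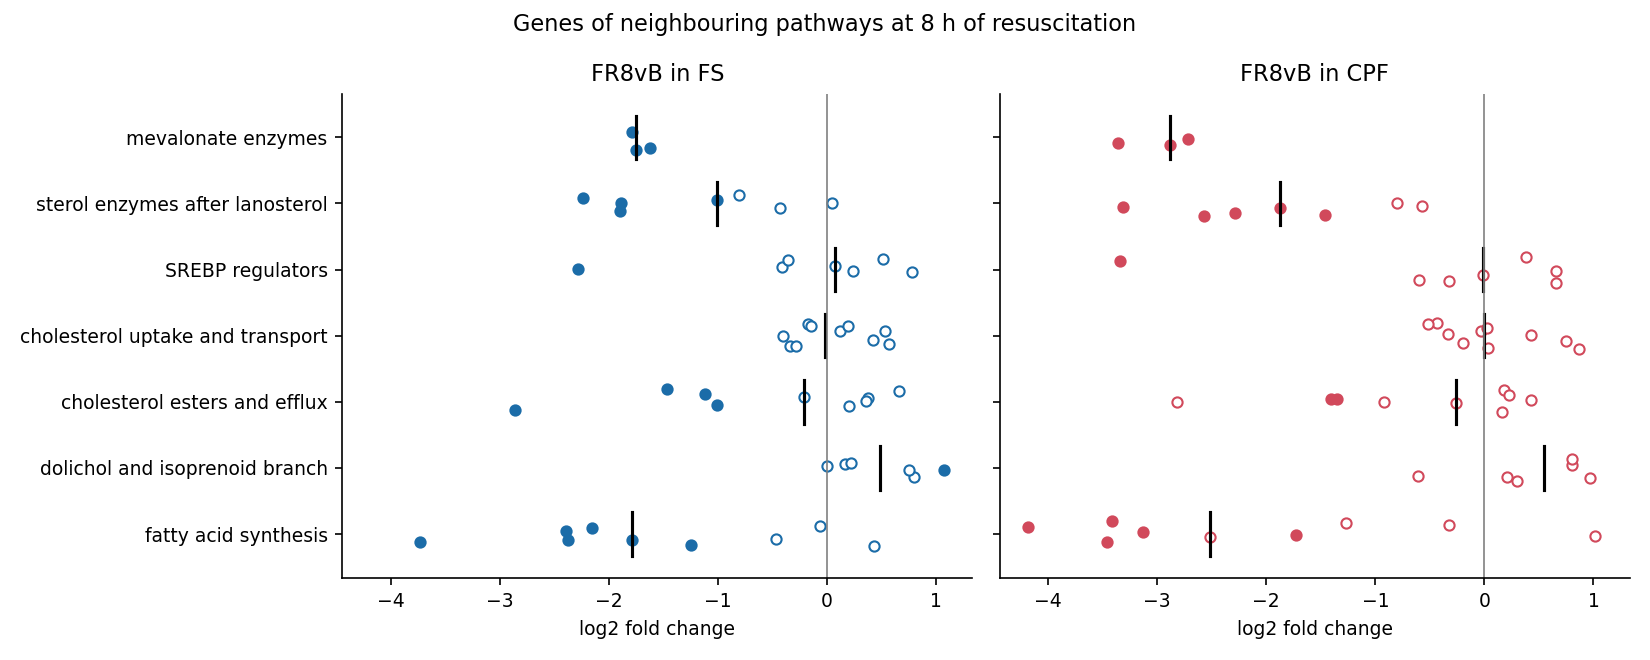
Log2 fold change at FR8vB of each tested gene in 7 pathway lists that hold none of the members, in FS (blue) and CPF animals (red). Filled points passed both thresholds and black bars are list medians. Mevalonate enzymes lie at medians of -1.75 and -2.88 and fatty acid synthesis at -1.79 and -2.52. Uptake and transport has no filled point among 10 tested genes. Of all genes, 7.39% fell and 4.44% rose in FS animals, and 5.14% fell and 3.70% rose in CPF animals.

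The members also varied together among animals of the same feeding group and time point. Over the 88 libraries, after group means were removed, Pearson's r of log2 CPM among the 21 pairs of the 7 members ran from 0.31 to 0.88 (median 0.62), and from 0.00 to 0.87 (median 0.44) over the 59 libraries without the 8 animals. Both ranges hold the 2 libraries of animal 11 at 0 CPM of CYP51A1. Without those 2 libraries r ran from 0.46 for HMGCS1 and CYB5R3 to 0.92 for SQLE and CYP51A1 (median 0.76, 86 libraries), and from 0.09 to 0.87 (median 0.60, 57 libraries) when the 8 animals were left out as well. These points share libraries, depth and any error in the time labels, and r is given as a description.

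The genes most like each member are given over the 86 libraries without those 2 of animal 11, a choice made after seeing that the zeros moved several of them. MSMO1 was the gene most like SQLE (r = 0.95), followed by CYP51A1 (0.92) and SC5D, a sterol desaturase (0.90). With all 88 libraries ACAT2 and IDI1 (0.88 each) took the places of CYP51A1 and SC5D. For CYP51A1 they were MSMO1 (0.95), SQLE (0.92) and IDI1 (0.90), and with all 88 libraries SC5D (0.97), NAMPT (0.95) and ACAT1 (0.94). For HMGCS1 they were ACAT2 (0.87), SC5D and SQLE (0.86 each), with MSMO1 (0.84) in place of SC5D over the 88 libraries. FDPS was most like IDI1 (0.93) and SQLE most like FDFT1 (0.86).

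For LSS the 3 most alike were SMPDL3B (0.88), DHCR7 (0.87) and FDPS (0.86). For CYB5R3 they were UROC1 (0.85), CAT (0.84) and HIBADH (0.83), of which CAT encodes catalase and none is a sterol enzyme, with ADTRP (0.83) in place of HIBADH over the 88 libraries. Without the 8 animals, and with animal 11 kept, r fell to 0.69, 0.78 and 0.59 for LSS with SMPDL3B, DHCR7 and FDPS, to 0.62 and 0.66 for CYB5R3 with UROC1 and CAT, and to 0.78 for IDI1 with FDPS. It was 0.88 for SQLE with MSMO1 and 0.87 for FDFT1 with SQLE.

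The sum of hepatocyte markers, in which albumin was the most abundant, was lower over the same hours. The summed level of 10 hepatocyte markers found in the table (of 12 listed, 0 of them at 0) had an FS median of 223405 CPM at Baseline, 162389 at FR2, 103402 at FR8 and 67227 at FR20, and a CPF median of 209048, 164155, 110233 and 66739 CPM. Its range in FS animals was 103383 to 253536 CPM at Baseline and 67031 to 221866 CPM at FR8. Albumin, the most abundant marker, had FS medians of 141496 CPM at Baseline and 27892 CPM at FR20. The hepatocyte sum was lower at FR20 than at FR8, whereas the medians of 6 of 7 members in FS and 7 of 7 in CPF animals were higher. At FR8vB 4 of 10 hepatocyte markers fell and 2 rose in FS animals, and 2 fell and 1 rose in CPF animals, against 7.39% falling and 4.44% rising of all genes in FS and 5.14% and 3.70% in CPF animals. The lowest was TTR, at -1.85 ± 0.30 in FS and -1.77 ± 0.56 in CPF animals. The highest was FGA, at 1.63 ± 0.26 and 2.22 ± 0.48. The markers thus moved in both directions, and the sum does not stand for each of them. In these bulk samples fewer cells of a type, less RNA per cell and changes of single genes were not tested apart.

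The neutrophil marker sum moved the other way. The sum of 5 markers found (of 7 listed, 1 at 0) had FS medians of 1.68 CPM at Baseline and 15.6, 8.18 and 6.62 CPM at FR2, FR8 and FR20, with S100A9 the most abundant. Its FS range was 0.142 to 14.1 CPM at Baseline and 1.01 to 30.8 CPM at FR8. Kupffer cell and macrophage markers (5 of 9 found) had FS medians of 1505 CPM at Baseline and 991.1 CPM at FR8. Endothelial (4 of 7 found), T and NK cell (5 of 7), erythroid (4 of 6) and adipocyte markers (2 of 4) had FS medians of 190.3, 29.4, 256.4 and 9.57 CPM at Baseline and 213.2, 26.3, 121.0 and 16.6 CPM at FR8. Striated muscle markers (7 of 13 found) summed to at most 113.3 CPM in any library used. The part of these cell markers in the members' changes was not tested.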

How the data were processed

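Liver RNA from 23 pigs was sequenced by poly-A TruSeq libraries as single reads. The deposited table held raw read counts per Ensembl gene, which the authors made with CASAVA 1.8.2, TopHat 1.5.0 on Sscrofa10.2, SAMtools and HTSeq. All columns were matched to a sample by title. Of 25322 identifiers, 12504 received a symbol, 11804 from a gene name table and 700 from the study's tables. Groups were taken from the labels.

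Counts of 88 libraries were scaled by trimmed mean of M-values and fitted in edgeR 4.0.16 (R 4.3.3), keeping genes whose CPM summed to 10 or more. Changes over time were tested by 2-sided quasi-likelihood F tests with the animal as a block and separate time terms for FS and CPF. CPFvFS and died against lived were tested at each time point. P-values were Benjamini-Hochberg adjusted over all genes. Those of changes over time rest on the spread left after the animal block, in an estimate that FS and CPF animals share. Those of CPFvFS and of died against lived rest on the spread between animals at a time point. SE was the log2 fold change over the root of F, and intervals are 1.96 SE. Pairing came from the animal in the titles. Residuals of the same animal's libraries correlated at a median of 0.21 (84 of 126 pairs over 0.1), against -0.01 for different animals (830 of 2775).

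DESeq2 1.42.0, limma 3.58.1 (voom with quality weights) and edgeR's likelihood ratio test were alternatives, with other filters, size factors and samples. Figures and summaries used Python 3.11.15, pandas 2.3.3, numpy 2.4.6 and matplotlib 3.10.9. The fits were also run on simulated counts with the same spread for every gene and a lower fold threshold. Those counts held no misplaced labels or missing rows, and no result here rests on that run. The members and lists were chosen with earlier results of these data known. Named genes were the members, the highest and lowest gene of each pathway list and of the hepatocyte markers at FR8vB, the 3 genes most like each member and the most abundant gene of a marker list. A gene of the pathway is not reported here, and no sequences were used here.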

Additional observations from a re-analysis of the deposited data

Results flagged for a closer look

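HMGCS1 in CPF animals at FR8 was set apart by 1 sample. Animal 18 had 124.2 CPM, against 54.1, 61.5 and 60.1 CPM in animals 7, 8 and 13, so its gap to the nearest animal was 0.846 of the range of the group, above the critical value of Dixon's test for 4 samples. Its level was still below the lowest Baseline level of 468.6 CPM. Chance gives such a gap in about 1 in 20 groups, and 32 groups of members were looked at.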

How the results depend on the processing

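All 1224 log2 fold changes of the members from Baseline over the settings lay below 0, and 0 changed direction. Those for the adjusted p alone repeat the values of the main fit and could not change. The other settings share most of their libraries, so the total is not one of independent tests. Counts of members called moved by over 1.5 times in 37 of 598 recomputations. At FR20vB in CPF animals the count of 1 became 0 when a CPM sum of 3 sufficed, without a filter, without the replicate block, with 91 libraries and without the animals that died, 2 with DESeq2, with the likelihood ratio test and without animals 17, 19 and 21, and 5 with limma and without the 8 animals. At FR20vFR8 the count of 0 became 1 in CPF animals with limma, and in FS animals 3 with limma, 4 without animals 17, 19 and 21 and 5 without the 8 animals. At FR2vB in FS animals the count of 3 became 1 with 91 libraries, 2 without the replicate block and without animals 17, 19 and 21, 4 with DESeq2, with the likelihood ratio test and without the 8 animals (CYP51A1 gained), and 5 by adjusted p alone. At FR20vB in FS animals the count of 5 became 4 with 91 libraries (FDFT1 lost), and 6 by adjusted p alone and, with the low-count IDI1 identifier gained, with DESeq2, the likelihood ratio test, limma and without the 8 animals. Without animals 17, 19 and 21 it was 5, with that identifier in place of FDFT1. At FR8vB 91 libraries gave 4 in place of 7 in FS and 4 in place of 8 in CPF animals, and leaving out the animals that died gave 0 in CPF animals. At FR8vFR2 the CPF count of 5 became 1 with 91 libraries, 0 without the animals that died and 6 or 7 without the 8 animals or with limma. The FS count of 3 became 5 with limma and without animals 17, 19 and 21, 6 without the 8 animals, and 1 without the replicate block, with 91 libraries and without the animals that died. The causes were not tested. Leaving out each animal in turn gave 0 to 2 at FR20vB in CPF, 4 to 6 at FR20vB in FS, 3 to 4 at FR2vB in FS, 5 to 7 at FR8vB in CPF, 0 to 4 at FR8vFR2 in CPF and 2 to 4 at FR8vFR2 in FS. Without the replicate block LSS lost its call at FR20vB in CPF (adjusted p = 0.142) and HMGCS1 at FR2vB in FS (adjusted p = 0.0501), and the other changes from Baseline kept their calls. The settings without animals 17, 19 and 21, without the 8 animals and without 2 libraries of animal 11 were chosen after seeing the data. Promoter motifs were not run, because no sequence table was used here. No size factor, filter or tool moved the median of all genes by over 0.1.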

Other observations

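The libraries left out also held counts of the members. In the Baseline libraries of FS animals 17, 19 and 21, which held almost no albumin, SQLE was at 11.1, 10.9 and 18.5 and IDI1 at 7.83, 5.34 and 8.42 CPM of total counts, below the median Baseline level of the liver libraries. CYB5R3 was at 113.3, 74.5 and 77.5 CPM in the same libraries, nearer to its level in liver. The FR8 library of CPF animal 3 held 13 counts of HMGCS1, 2 of IDI1 and 1 each of SQLE and FDFT1 among 4388.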
